A study of Mus musculus with 8 samples.

Results

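The genes described here are 10 markers of astrocytes: Aqp4, Aldh1l1, S100b, Sox9, Fgfr3, Clu, Slc4a4, Acsbg1, Mlc1 and Hepacam. They were taken by symbol from the 24343 genes of the deposited whole-brain table, and all 10 were found. RNA from the whole brains of 3 C57BL/6NCrl mice was sequenced in bulk, as 3 libraries each from mouse 1 and mouse 2 and as 2 libraries from mouse 3. The mice were 56–62 days old, the labels name no treatment, and all belonged to a single condition, so the comparisons below are between individual mice. The labels give neither the sex of the mice nor what the library numbers stand for, and libraries that share a mouse cannot count as independent samples.

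Astrocytes are process-bearing glial cells that fill the space between neurons, take up glutamate and potassium released by neuronal activity, and wrap blood vessels with endfeet. The markers cover several of these roles. Aqp4, Mlc1, Hepacam and Slc4a4 encode membrane proteins of endfeet and processes that handle water, cell adhesion and bicarbonate, Aldh1l1 and Acsbg1 encode enzymes of folate and fatty acid metabolism, Clu and S100b encode a secreted chaperone and a calcium-binding protein, and Sox9 and Fgfr3 encode a transcription factor and a growth factor receptor. Several are also made by other cells of the brain: S100b by oligodendrocytes, Clu by some neurons and by choroid plexus and ependymal cells, and Sox9 by ependymal cells.

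Values are FPKM, the sequenced fragments scaled to transcript length and library size, summed over the transcripts of a gene, and a mean ± SD is taken over 3 mice from the means of each mouse's libraries. The sequence read on transcripts came to 1.31 to 2.02 gigabases in a library. Both libraries of mouse 3 stood apart from the other 6. Their FPKM over all genes summed to 384885 and 409889, against 295541 to 345572 in mice 1 and 2, and transcripts of at most 1558 nucleotides held 46.2% and 48.2% of it, against 33.0% to 40.0%. The FPKM of longer transcripts summed to 206909 and 212412 in mouse 3 and to between 197987 and 208467 in the other mice, so the larger total lay in the short transcripts. Values of the members in mouse 3 are therefore given beside those of the other mice.

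From the RefSeq promoter table for the mouse genome build GRCm38.p6, 9 windows for 7 of the 10 members were used. Aqp4, Sox9 and Clu are not among these members, so the counts below do not cover them. What the table holds for Aqp4 is not reported here. The 250 bases upstream of each start were searched for the dinucleotide CG and, on both strands, for TATAAA. The windows ranged from rich to poor in CG, with 44 and 3 CG in the windows of Slc4a4, 19 and 24 in those of Fgfr3, 7 in that of Aldh1l1, 4 in Hepacam, 2 in S100b, 1 in Acsbg1 and 0 in Mlc1. Of the 9 windows 5 overlap an annotated exon of their own gene. These are the windows of Aldh1l1, Hepacam and Mlc1, that of Slc4a4 with 44 CG and that of Fgfr3 with 19 CG. The median over all 32851 windows of the table was 6 (quartiles 2 and 16), and 92.1% of them hold at least 1 CG. TATAAA was in 0 of the 9 windows and in 12.4% of all windows. The sequences of 3 windows are printed 5′ to 3′ on the strand of the gene, with each CG in capitals. Those of S100b and Acsbg1 were picked as members with few CG and a large difference between the mice. Whether CG content goes with that difference was not tested. The window of Fgfr3 lies before the downstream of its start sites, whose share of the gene is described below. The 3 windows lie at chr10:76253586-76253835 on the plus strand (S100b), chr9:54661886-54662135 on the minus strand (Acsbg1) and chr5:33722056-33722305 on the plus strand (Fgfr3). The last overlaps an exon of G630022F23Rik.
S100b: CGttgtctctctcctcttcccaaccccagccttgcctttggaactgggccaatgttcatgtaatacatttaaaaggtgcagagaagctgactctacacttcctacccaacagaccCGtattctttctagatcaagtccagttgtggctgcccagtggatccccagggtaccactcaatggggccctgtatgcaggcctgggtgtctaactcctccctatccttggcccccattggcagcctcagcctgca
Acsbg1: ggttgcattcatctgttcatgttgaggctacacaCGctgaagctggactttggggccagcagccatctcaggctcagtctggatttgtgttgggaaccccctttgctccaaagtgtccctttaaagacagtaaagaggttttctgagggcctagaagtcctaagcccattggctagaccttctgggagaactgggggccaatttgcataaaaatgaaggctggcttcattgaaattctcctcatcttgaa
Fgfr3: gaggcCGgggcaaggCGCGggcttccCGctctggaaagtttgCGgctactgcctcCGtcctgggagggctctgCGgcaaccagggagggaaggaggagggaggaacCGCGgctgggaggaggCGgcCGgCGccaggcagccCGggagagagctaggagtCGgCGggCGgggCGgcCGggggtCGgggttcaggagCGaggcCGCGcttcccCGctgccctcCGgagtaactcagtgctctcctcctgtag
As few CG as in the window of S100b, or fewer, were found in 29.0% of all windows, and the corresponding shares were 18.8% for Acsbg1 and 89.3% for the Fgfr3 window.

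On the mouse genome build GRCm38 (mm10), the members lie on 8 chromosomes and all are protein-coding genes. Clu is on chromosome 14 from 65968483 to 65981545, S100b on chromosome 10 from 76253836 to 76261319, Sox9 on chromosome 11 from 112782210 to 112787757, and Aldh1l1 on chromosome 6 from 90550848 to 90599171, each on the plus strand. On chromosome 5, also on the plus strand, lie Fgfr3 (33721724 to 33737068) and Slc4a4 (88887260 to 89239656). Chromosome 9 carries Hepacam (37367606 to 37386571, plus strand) and Acsbg1 (54604997 to 54661885, minus strand). Aqp4 (chromosome 18, 15389394 to 15410982) and Mlc1 (chromosome 15, 88955884 to 88978553) are on the minus strand. Exons of Fgfr3 overlap those of G630022F23Rik on the opposite strand, and exons of Aldh1l1 overlap those of Gm15756 on the opposite strand and Gm45901 on the same strand. The strand setting of the mapping is not given in the sources used here, so reads of these overlaps cannot be assigned with certainty.

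The 10 genes spanned levels from 10.1 FPKM for Sox9 to 350 FPKM for Clu. All 10 passed the minimum of 1 FPKM as a mean over mice, which 13001 genes reached. Clu, the secreted chaperone clusterin, was by far the highest and ranked 126th of all genes by level. S100b came next with 151 ± 67.3 FPKM (SD, n = 3 mice) and Mlc1 after it with 73.2 ± 27.02 FPKM. The means of Acsbg1 and Aqp4 were 65.8 ± 20.8 and 51.4 ± 9.98 FPKM, followed by Slc4a4 with 47.6 ± 5.42 and Hepacam with 34.2 ± 4.94 FPKM. Fgfr3 (21.8 ± 3.34), Aldh1l1 (19.8 ± 4.34) and Sox9 (10.1 ± 0.753 FPKM) had the lowest levels, and Sox9 ranked 5907th of all genes. This order was the same in each of the 3 mice. The ranges of the mouse means of neighbours in the order did not overlap between Clu and S100b, S100b and Mlc1, Slc4a4 and Hepacam, Hepacam and Fgfr3, or Aldh1l1 and Sox9. They overlapped between Mlc1, Acsbg1, Aqp4 and Slc4a4 and between Fgfr3 and Aldh1l1. Aqp4 exceeded Slc4a4 in 4 of 8 libraries only, with a ratio of means of 1.08, and these neighbours did not differ beyond their spread.

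**Figure D1:**
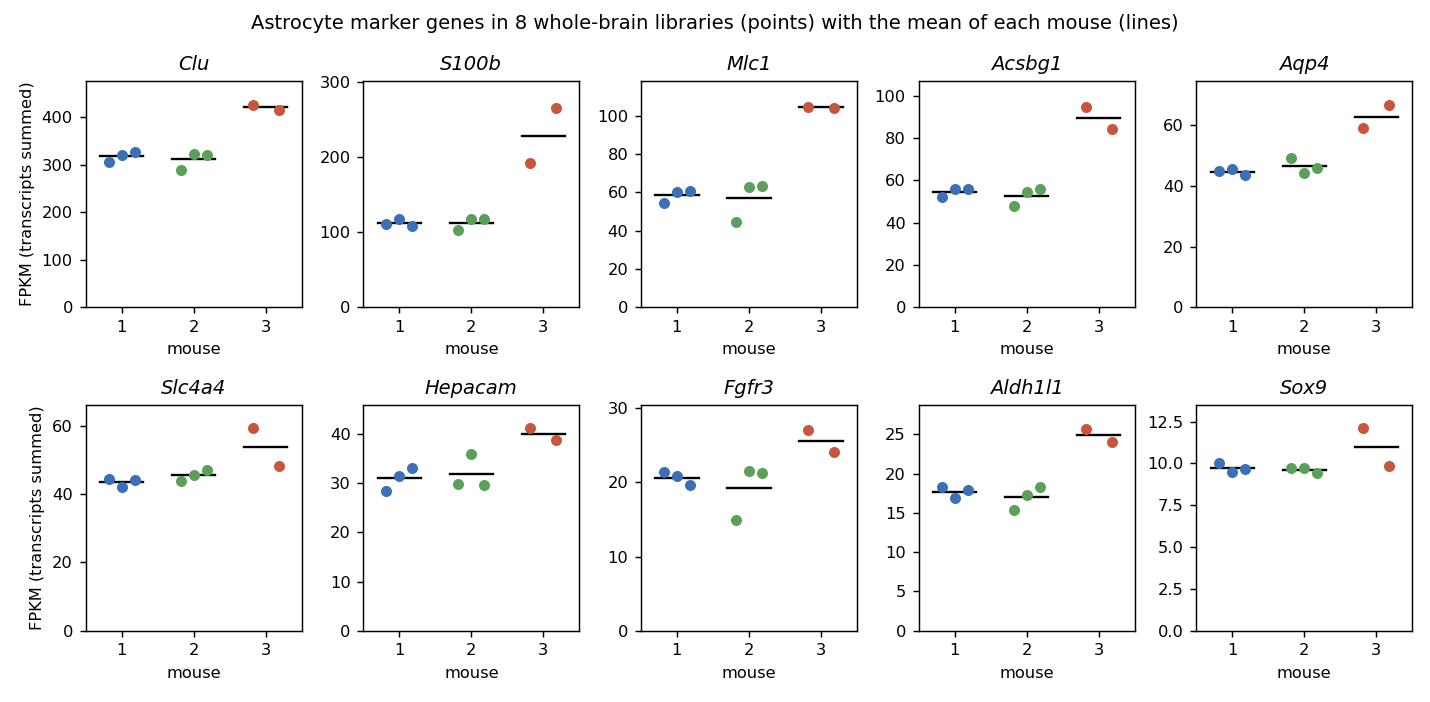
FPKM of each marker gene (y axes, each starting at 0) in the libraries of mice 1, 2 and 3 (x axes), with points for single libraries and lines for the mean of each mouse. Both libraries of mouse 3 lie above the other 6 for 9 of the 10 genes, and for Sox9 1 of them lies within the range of the other mice.

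As a sum over the 10 genes, mouse 1 had 691, 721 and 721 FPKM in its libraries, mouse 2 had 647, 733 and 729 FPKM, and mouse 3 had 1042 and 1082 FPKM. The mean was 825 ± 205 FPKM (SD, n = 3 mice), while mice 1 and 2 alone had means of 711 and 703 FPKM. Clu made up 44.7%, 44.3% and 39.6% of this sum in mice 1, 2 and 3, and S100b made up 15.8%, 16.0% and 21.5%. The remaining 8 genes each held less than 10% of it in every mouse. Thus the make-up of the sum was close in mice 1 and 2, and in mouse 3 a larger part of it was S100b and a smaller part Clu. In a bulk sample, more cells of a type and more RNA per cell cannot be told apart, and this holds for each difference between mice below.

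The mice were compared by limma on log2(FPKM + 1) over the 13001 genes, p-values adjusted after Benjamini and Hochberg, and 0.05 as the threshold. Of the 10 members, 6 differed between the mice in the F-test over all 3 mice, which called 26.9% of all genes tested. Without library 2 of mouse 3 the F-test called 2 members (S100b and Acsbg1) and 372 genes, and Aqp4, Aldh1l1, Clu and Mlc1 no longer passed it. Between mice 1 and 2, 0 of 10 members passed, and 0.00769% of all genes did (1 gene, and 430 at an unadjusted p under 0.05). Mouse 3 against the mean of mice 1 and 2 gave 8 of 10 members higher and 0 lower, where 20.7% of all genes were higher and 17.6% lower. This contrast was set with earlier results in view, in which mouse 3 stood apart, and its p-values measure only the spread between libraries of these 3 mice. Both libraries of mouse 3 lay above the other 6 libraries for 9 of 10 members and for 26.5% of all genes. The median difference of the 10 members was 0.44 on the log2 scale, against 0.02 for all genes tested.

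Among the endfoot proteins, Mlc1 differed most between the mice. Mlc1, a membrane protein that forms a complex with the adhesion molecule Hepacam, had 54.2, 60.2 and 60.9 FPKM in mouse 1, 44.5, 62.7 and 63.1 FPKM in mouse 2, and 104.5 and 104.3 FPKM in mouse 3. The libraries of mouse 3 were nearly equal and lay far above the others, whereas library 1 of mouse 2 lay below the rest. Over all genes tested, that library also had the lowest median log2 deviation (-0.11). The difference of mouse 3 from the mean of mice 1 and 2 was 0.86 ± 0.130 on the log2 scale (SE, limma adjusted p = 0.00236). Hepacam had 28.4, 31.5 and 33.1 FPKM in mouse 1, 29.8, 36.0 and 29.5 FPKM in mouse 2, and 41.1 and 38.8 FPKM in mouse 3. Its libraries in mouse 3 were above all others by a small margin, with a log2 difference of 0.34 ± 0.0953 (limma adjusted p = 0.0219). Hepacam no longer passed when library 1 or library 2 of mouse 3 was left out (adjusted p = 0.0971 and 0.0911).

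Aqp4, the water channel of endfeet, had 45.0, 45.7 and 43.5 FPKM in mouse 1, 49.4, 44.4 and 46.1 FPKM in mouse 2, and 59.1 and 66.7 FPKM in mouse 3. The 6 libraries of mice 1 and 2 spanned 43.5 to 49.4 FPKM, and both libraries of mouse 3 were above this range. Its log2 difference was 0.45 ± 0.0753 (limma adjusted p = 0.00320). Slc4a4, a sodium bicarbonate cotransporter, had 44.3, 42.2 and 44.1 FPKM in mouse 1, 43.7, 45.5 and 47.2 FPKM in mouse 2, and 59.3 and 48.2 FPKM in mouse 3. Library 2 of mouse 3 was only just above the highest library of mouse 2, whereas library 1 stood clear of all others. The log2 difference of Slc4a4 was 0.26 ± 0.0856 (limma adjusted p = 0.0407), and it was 0.11 without library 1 of mouse 3 (adjusted p = 0.234) and 0.41 without library 2 (adjusted p = 0.0208). Slc4a4 also missed the threshold without any single library of mouse 1 (adjusted p = 0.0697, 0.0851 and 0.0758) and without library 2 or library 3 of mouse 2 (adjusted p = 0.0696 and 0.0526).

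Of the enzymes, Acsbg1, which activates long-chain fatty acids, had 52.4, 56.1 and 55.8 FPKM in mouse 1, 47.9, 54.7 and 56.0 FPKM in mouse 2, and 95.0 and 84.5 FPKM in mouse 3. The groups were wide apart, with a log2 difference of 0.73 ± 0.0848 (limma adjusted p = 0.00129). Aldh1l1, the folate enzyme whose promoter is widely used to mark astrocytes, had 18.3, 16.9 and 17.9 FPKM in mouse 1, 15.4, 17.3 and 18.3 FPKM in mouse 2, and 25.6 and 24.1 FPKM in mouse 3. Its libraries in mouse 3 were likewise above all others, and its log2 difference was 0.50 ± 0.0792 (limma adjusted p = 0.00277).

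S100b, the calcium-binding protein, showed the largest difference of the 10 genes. It had 111, 118 and 109 FPKM in mouse 1, 102, 117 and 118 FPKM in mouse 2, and 192 and 266 FPKM in mouse 3. The libraries of mouse 3 differed from each other by a factor of 1.39, more than those of any other member did in this mouse, and both were above the other 6. The log2 difference was 1.00 ± 0.122 (limma adjusted p = 0.00139). Clu had 306, 320 and 328 FPKM in mouse 1, 289, 324 and 320 FPKM in mouse 2, and 426 and 415 FPKM in mouse 3. The groups of libraries did not overlap, and the log2 difference was 0.42 ± 0.0837 (limma adjusted p = 0.00604).

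Neither of the regulators passed the test. Sox9, a transcription factor of glial fate, had 10.02, 9.47 and 9.67 FPKM in mouse 1, 9.73, 9.72 and 9.44 FPKM in mouse 2, and 12.1 and 9.81 FPKM in mouse 3. Library 2 of mouse 3 lay within the range of the other mice, and the log2 difference of 0.16 ± 0.0834 did not pass (limma adjusted p = 0.158). It was 0.02 without library 1 of mouse 3 and 0.30 without library 2, where it passed (adjusted p = 0.0380). Fgfr3, a receptor of fibroblast growth factors, had 21.5, 20.9 and 19.6 FPKM in mouse 1, 14.9, 21.6 and 21.3 FPKM in mouse 2, and 27.1 and 24.1 FPKM in mouse 3. The low library 1 of mouse 2 widened its spread, and the log2 difference of 0.35 ± 0.132 did not pass (limma adjusted p = 0.0630). That library was low over all genes tested, with a median log2 deviation of -0.11. With median centring the difference of Fgfr3 was 0.33 and passed (limma adjusted p = 0.0376). Without library 1 of mouse 2 it was 0.27 (adjusted p = 0.0153), and it passed also without library 2 of mouse 2 (adjusted p = 0.0482).

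For the 7 members with 1 transcript, the deposited confidence bounds lay within 2.08% to 9.64% of the FPKM value, with a coverage of 15.8 to 889 reads per base. In 5 of them (Aldh1l1, S100b, Clu, Acsbg1 and Mlc1) the bounds of both libraries of mouse 3 lay above the bounds of all other libraries. The bounds of the libraries of mouse 3 did not overlap each other for S100b, Sox9 and Acsbg1. Within mice 1 and 2, the highest library of a member exceeded the lowest by a factor of 1.03 to 1.45.

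The size of the difference depended on how libraries were scaled. When values were rescaled to TPM, which sets the total of each library equal, the median difference of all genes moved from 0.02 to -0.23 on the log2 scale, and the share of calls that were higher in mouse 3 fell from 54.2% to 16.3%. With TPM, 3 of 10 members were higher and 0 lower, where 8.58% of all genes were higher and 44.1% lower. The 3 were S100b (0.70, limma adjusted p = 0.000537), Mlc1 (0.56, adjusted p = 0.00143) and Acsbg1 (0.43, adjusted p = 0.00232). Slc4a4 (-0.033) and Sox9 (-0.11) changed sign with TPM, and neither passed (limma adjusted p = 0.799 and 0.388). The median of the members lay above that of all genes by 0.42 with FPKM and by 0.37 with TPM. With each library centred on the median gene, 9 of 10 members were higher, against 21.7% of all genes. In a scaling added after seeing the data, libraries were set to the same FPKM total over genes with transcripts longer than 1558 nucleotides, and 7 of 10 members were higher, against 20.7% of all genes. Slc4a4 was the member that no longer passed there (limma adjusted p = 0.0596).

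**Figure D2:**
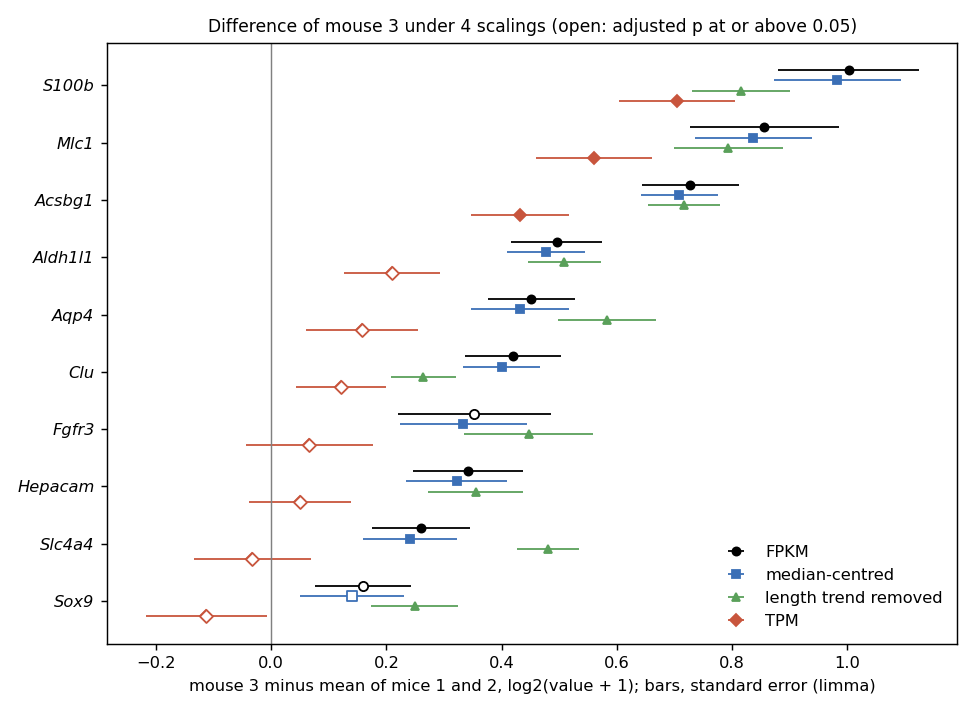
Difference of mouse 3 from the mean of mice 1 and 2 on the log2(value + 1) scale (x axis) for each marker gene (y axis) under 4 scalings of the libraries. Points are limma estimates with standard errors and open points did not pass the adjusted threshold of 0.05. TPM shifts each gene to lower values, takes Slc4a4 and Sox9 below 0 and leaves S100b, Mlc1 and Acsbg1 past the threshold.

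Transcript length moved with the difference between the mice over all genes. Genes in the shortest of 5 equal bins by length (77 to 1558 nucleotides) had a median log2 difference of 0.42, and those in the longest (4702 to 19827 nucleotides) had one of -0.20. No member was in the shortest bin. S100b, Clu and Mlc1 were in the next bin, with a median of 0.12 over its genes, Aldh1l1, Acsbg1 and Hepacam in the middle bin (-0.00443), Sox9 and Fgfr3 in the bin after it (-0.08), and Aqp4 and Slc4a4 in the longest. Each of the 10 members had a larger difference than the median of its bin. With the length trend of each library removed by a loess curve, all 10 members were higher in mouse 3 by limma, against 17% of all genes. The smallest of these differences was 0.25 for Sox9 (limma adjusted p = 0.0330), Slc4a4 had one of 0.48 and Clu one of 0.26, and S100b had 0.82 and Mlc1 0.79. What part transcript length has in the differences was not tested.

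**Figure D3:**
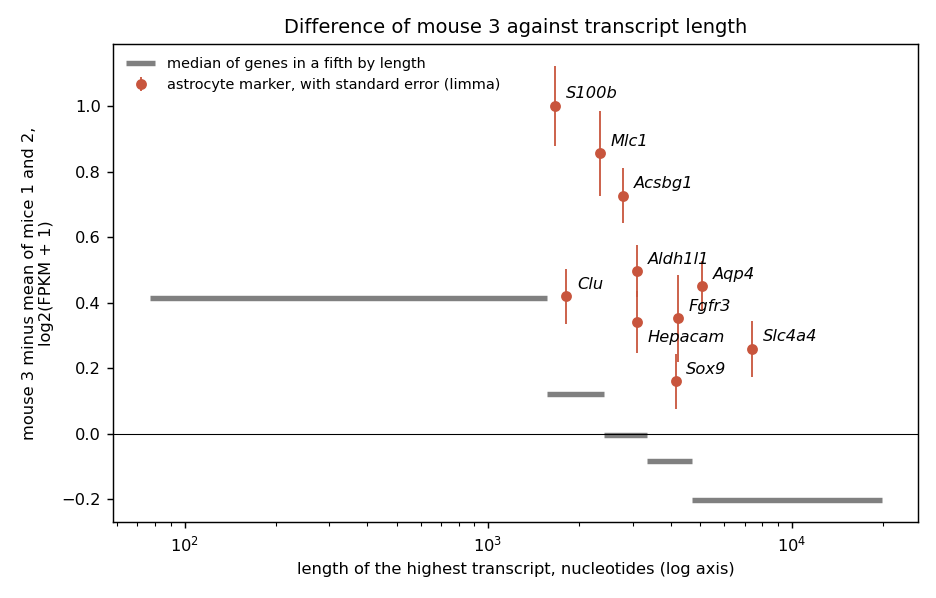
Difference of mouse 3 from the mean of mice 1 and 2 on the log2(FPKM + 1) scale (y axis) against the length of the highest transcript (x axis, log scale), with marker genes as points with limma standard errors and bars for the median of all genes in each of 5 bins. The bars fall from 0.42 to -0.20 with length, and each marker gene lies above the bar of its bin.

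A list of 26 further astrocyte genes was measured in the same way. All 26 were expressed, 23 were higher in mouse 3 and 0 lower, and their median log2 difference was 0.52, where 20.7% of all genes were higher and 17.6% lower. With TPM 12 were higher and 1 lower, beside 8.58% and 44.1% of all genes. Apoe, the lipid carrier that astrocytes secrete, was the highest of them with 1009 ± 357 FPKM (SD, n = 3 mice), from mouse means of 805, 800 and 1422 FPKM, and a log2 difference of 0.82 (limma adjusted p = 0.00157). The largest differences were those of Ndrg2 (1.06), the intermediate filament gene Gfap (1.03), the claudin Cldn10 (0.99) and the glycolytic enzyme Aldoc (0.92). With the length trend removed Cldn10 fell to 0.54, below Slc1a2 (0.75), Slc39a12 (0.70) and Glul (0.64), while Gfap, Ndrg2 and Aldoc had 1.01, 0.96 and 0.90. Gfap had 72.6 ± 32.9 FPKM, with means of 52.8, 54.4 and 110.6 FPKM in mice 1, 2 and 3. The phagocytic receptor Megf10 was the lowest, with 5.06 ± 0.276 FPKM and a log2 difference of -0.13 that did not pass (limma adjusted p = 0.360).

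With FPKM, genes whose products work with the members gave shares near those of all genes, or below. Of 14 such genes 13 were tested, 3 were higher in mouse 3 and 1 was lower, beside 20.7% and 17.6% of all genes, and the median log2 difference was 0.05. With TPM 2 were higher and 6 lower (median -0.22), beside 8.58% and 44.1% of all genes. With the length trend removed 6 were higher and 0 lower (median 0.28), a larger share than the 17% of all genes that were higher. The higher ones were the inward rectifier channel Kcnj10 (0.76, limma adjusted p = 0.000930), the Fgfr3 ligand Fgf1 (0.54) and the carbonic anhydrase Car2 (0.44), and Car2, with 110 ± 20.4 FPKM (101, 96.0 and 133.5 FPKM in mice 1, 2 and 3), had the highest level of the list. The difference of Car2 was 0.14 with TPM (limma adjusted p = 0.147) and 0.28 with the length trend removed (adjusted p = 0.00404). The lower one was Nfib, a transcription factor of astrocyte development (-0.26, limma adjusted p = 0.0490). Its call ended with median centring (limma adjusted p = 0.0530) and with the length trend removed, where the difference was -0.0047 (adjusted p = 0.964). Ager, a receptor that binds S100b, had the lowest level at 0.265 FPKM and was not tested.

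Of 15 paralogues of the members 10 were tested, 2 were higher and 4 lower, beside 20.7% and 17.6% of all genes, and the median log2 difference was -0.20. With TPM 2 were higher and 6 lower (median -0.43), beside 8.58% and 44.1% of all genes. With the length trend removed 3 were higher and 3 lower, where 17% of all genes were higher. S100a1, with means of 63.9, 63.5 and 155.4 FPKM in mice 1, 2 and 3, and S100a6, with 10.1, 10.9 and 23.7 FPKM, were higher by 1.26 and 1.12, as S100b was by 1.00, and with TPM these differences were 0.97, 0.84 and 0.70. Both paralogues have short transcripts, and with the length trend removed their differences were 0.64 and 0.55, below the 0.82 of S100b. The bicarbonate transporter paralogues went the other way from Slc4a4: the neuronal Slc4a10 had a log2 difference of -0.67 and Slc4a5, which is made in choroid plexus, one of -0.49 (limma adjusted p = 0.00169 and 0.00970). Slc4a5 lay near the minimum of 1 FPKM, with means of 1.36, 1.17 and 0.607 FPKM in mice 1, 2 and 3, and reached it through mice 1 and 2. The other two lower paralogues were Slc4a7 and the oligodendrocyte factor Sox10 (-0.41 and -0.38, limma adjusted p = 0.0103 and 0.0132). Slc4a7 no longer passed with the length trend removed (-0.19, limma adjusted p = 0.0940). Acsbg2 was listed at 0 in every library.

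Among 6 genes that vary between astrocytes of brain regions, 4 were higher, beside 20.7% of all genes: Agt (0.66), Itih3 (0.53), Slc6a11 (0.51) and Mfge8 (0.46). With TPM only Agt was higher (0.37, limma adjusted p = 0.00307), beside 8.58% of all genes, and Gdf10 and Lhx2 were lower (adjusted p = 0.00694 and 0.0341). Slc6a11 and Mfge8 are also on the list of further astrocyte genes. Slc6a11, a GABA transporter, was the highest at 89.9 FPKM (77.9, 79.5 and 112.3 FPKM in mice 1, 2 and 3), and Gdf10, of cerebellar glia, the lowest at 9.46 FPKM with a log2 difference of -0.05. Of 8 genes of reactive astrocytes 3 reached 1 FPKM and 0 passed in either direction, beside 20.7% of all genes higher and 17.6% lower. Gfap, which was higher (1.03), was counted with the further astrocyte genes and is not on this list. Vim was the highest of them (32.1, 28.3 and 37.3 FPKM in mice 1, 2 and 3, log2 difference 0.31, limma adjusted p = 0.0823, and 0.0476 with median centring), and Lcn2 the lowest at 0.133 FPKM.

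Markers of other cell types differed in direction between lists, where 20.7% of all genes were higher in mouse 3 and 17.6% lower. Of 6 oligodendrocyte genes 4 were higher in mouse 3 (among them Mbp, Mog and Mobp). Mag (0.25) and Cnp (0.05) did not pass (limma adjusted p = 0.0531 and 0.668). The 6 genes summed to 2116–2356 FPKM in the libraries of mice 1 and 2 and to 4038–4947 FPKM in mouse 3. Much of this sum was Mbp, the highest of them (1288, 1322 and 3166 FPKM in mice 1, 2 and 3), with a log2 difference of 1.27. The oligodendrocyte factor Sox10, which is not on this list, was lower (-0.38). Of 5 ependymal genes 3 were higher (Foxj1, Ccdc153 and Tmem212), with sums of 9.71–13.5 and 18.9–20.9 FPKM. Of 6 microglial genes 3 were higher (among them C1qa and Cx3cr1), and of 5 endothelial genes 1 was (Cldn5). Of 6 neuronal genes 3 were lower (Syt1, Rbfox3 and Eno2) and 0 higher, with sums of 1903–2053 FPKM in mice 1 and 2 and 1651–1766 FPKM in mouse 3, and the log2 difference was -0.73 for Syt1 and -0.12 for Snap25, the highest of them. Genes of oligodendrocyte precursors gave 0 of 4 in either direction, and those of choroid plexus gave 0 of 5 higher and 1 lower (Kl). With TPM the oligodendrocyte genes gave 2 higher and 1 lower, the ependymal genes 2 higher, the microglial genes 1 higher and 1 lower, the endothelial genes 0 in either direction, the neuronal genes 6 of 6 lower, the precursor genes 4 of 4 lower and the choroid plexus genes 2 lower, beside 8.58% of all genes higher and 44.1% lower. Without library 2 of mouse 3, 2 oligodendrocyte, 0 ependymal, 0 microglial and 1 endothelial gene were higher. With the length trend removed 1 ependymal gene was higher, Foxj1, and the median of that list went from 0.70 to 0.13. In that fit 4 oligodendrocyte, 2 microglial and 3 endothelial genes were higher, beside 17% of all genes. Lower there were 4 neuronal genes and 1 gene of choroid plexus. C1qa no longer passed in it (0.14, limma adjusted p = 0.148). Over the same libraries the 10 astrocyte members summed to 647–733 and 1042–1082 FPKM. None of these other markers was at 0 in every library, and their part in the values of the members was not tested.

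**Figure D4:**
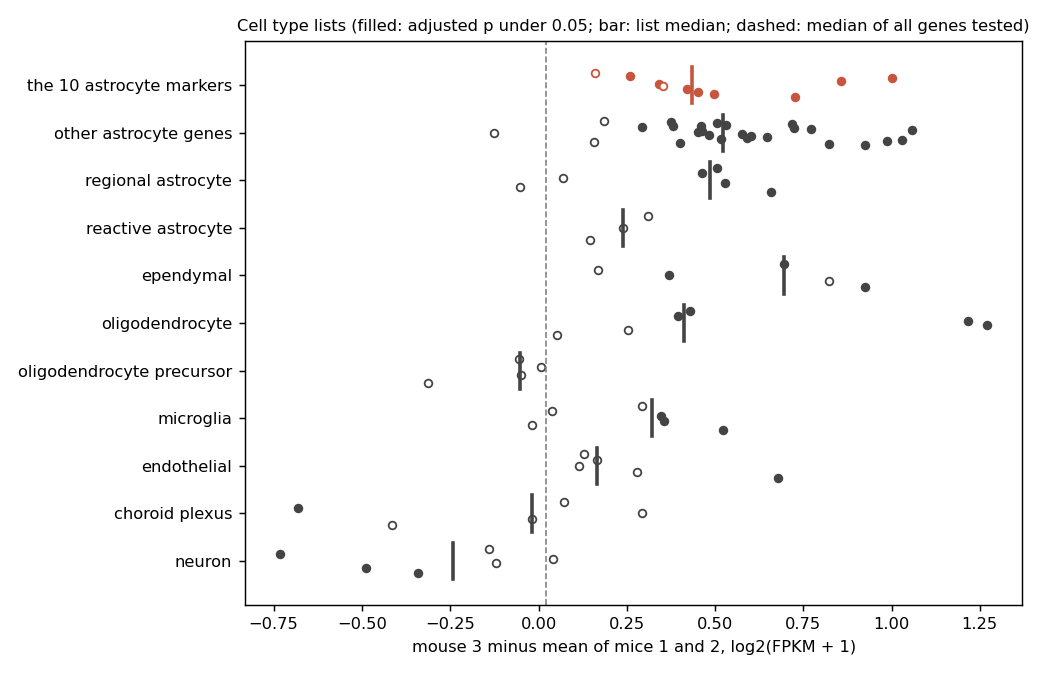
Difference of mouse 3 from the mean of mice 1 and 2 on the log2(FPKM + 1) scale (x axis) for the genes of each cell type list (y axis), with a bar for the median of a list and a dashed line for the median of all genes tested. Filled points passed the adjusted threshold of 0.05 by limma. The 10 astrocyte markers and the 26 further astrocyte genes have medians of 0.44 and 0.52, and the neuronal genes have one of -0.24.

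Over the 8 libraries, the genes most like the members were found from the root mean square difference between the centred log2(FPKM + 1) of a gene and the mean of the 10 members, among 12991 other genes. Among the closest were Dennd5a (0.0177), Ctnnbip1 (0.0287), Plce1 (0.0333) and Palm (0.0365), and the median over the other genes was 0.255. Of the members themselves, Clu (0.0429) and Aldh1l1 (0.0450) lay closest to this mean and S100b (0.252) farthest from it. Dennd5a, with 74.4 ± 16.4 FPKM (SD, n = 3 mice), had a log2 difference of 0.52 between mouse 3 and the other mice. These distances describe 8 libraries from 3 mice in which mouse 3 stands apart, and many genes share that pattern.

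The deposited estimates also divide 3 members between transcripts, with less certainty for a transcript than for the whole gene. Of the 8 Aqp4 transcripts, NM_009700 held 89.6 ± 0.62% of the FPKM of the gene (SD, n = 3 mice) and NM_001308647 held 9.03 ± 0.67%. The 6 transcripts from the start site farthest upstream held 1.38 ± 0.12% together. The means of these shares were close in the 3 mice, but single libraries varied. The share of the upstream site was 2.87%, 0.000473% and 1.26% in the libraries of mouse 1, and that of NM_001308647 ran from 5.72% to 12.2% within mouse 2. Slc4a4 was mostly NM_001136260, with 79.6 ± 4.06%, and NM_001197147 and NM_018760 held 14.1 ± 2.83% and 6.25 ± 1.80%. The share of NM_018760 ran from 0.04% to 13.8% over the libraries, so the estimate was not stable even within a mouse.

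The estimates divided Fgfr3 between its annotated start sites, and whether both were used was not tested. Transcripts from the upstream site at 33721724 held 74.1 ± 5.91% of the FPKM (SD, n = 3 mice). Those from the downstream site at 33722306, next to the window printed above, held 25.9 ± 5.91%. NM_008010 of the upstream site was the main transcript with 53.2 ± 4.47%, and NM_001163216 of the downstream site held 23.8 ± 7.04%. The share of the downstream site was 17.5%, 19.7% and 20.5% in mouse 1, 18.7%, 34.9% and 29.5% in mouse 2, and 34.2% and 27.1% in mouse 3. The libraries of mouse 2 spanned nearly the whole range, whereas those of mice 1 and 3 did not overlap. This difference was not tested.

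**Figure D5:**
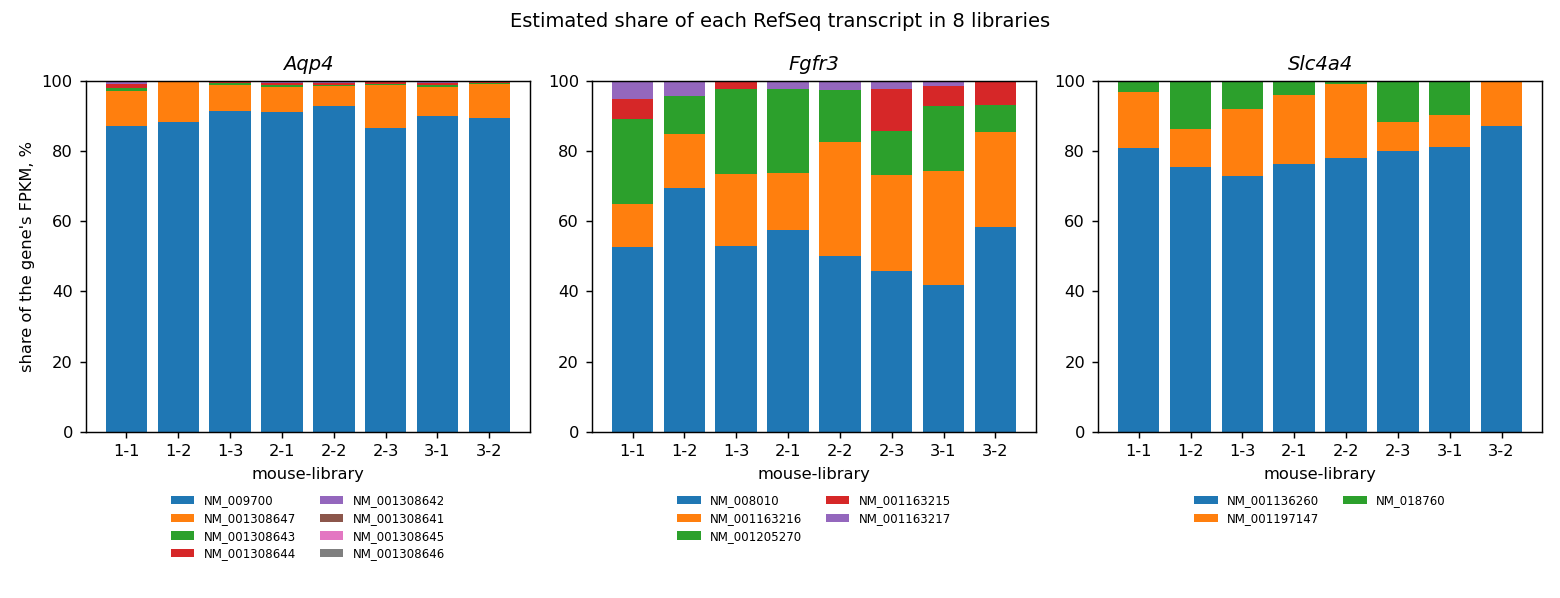
Share of the FPKM of Aqp4, Fgfr3 and Slc4a4 in percent (y axis) that was estimated for each RefSeq transcript in each library (x axis, mouse and library number). Aqp4 is led by NM_009700 in every library, while the shares within Fgfr3 vary from library to library.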

How the data were processed

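Whole-brain RNA of samples with an integrity score above 8 was sequenced, as the study's methods state. The submitters' processing notes name TopHat, Cufflinks and mm10, and their order, versions, strand setting and read length are not given in the sources used here. The authors deposited FPKM values with confidence bounds, and the coverage as a signal in reads per base, for 34535 RefSeq transcripts in 8 libraries. Depth is therefore given as coverage multiplied by length, and no counting interval was computed.

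FPKM values were summed per gene and averaged over the libraries of a mouse, then over mice. Genes that reached a mean of 1 FPKM (13001) were compared on log2(FPKM + 1) by limma 3.58.1 in R 4.3.3, with a variance trend, mouse as the group and Benjamini-Hochberg adjustment, after a test on simulated data. TPM was computed from FPKM. Status was FAIL for 8 values of 2 genes, none of them members.

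The members, lists and contrasts were chosen with earlier results of these data known. Named were all members, from each list of astrocyte genes the highest and lowest by level and up to 4 genes past the F-test with the largest range of mouse means, from other cell types the highest gene, and the 5 genes most like the members. Other genes behind small counts or comparisons (Nfib, Slc4a7, Sox10, Lhx2, Slc1a2, Slc39a12, Glul and, among other cell types, those given by name beside a count) were named after their values were seen. Some genes that fall under these rules are not reported here. Alternatives were other pseudocounts (0.1 and 5), no filter or a minimum of 5 FPKM, TPM, median centring, removal of the length trend (loess, span 0.3), the total of longer transcripts, the highest transcript of a gene, no variance trend, a replicate block, and leaving out each library.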

Additional observations from a re-analysis of the deposited data

Results flagged for a closer look

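Levels and shares of the members over the 8 libraries were checked for a single library far from the rest by Dixon's criterion. Of 27 sets of values 6 had one, where chance gives about 1 in 20 for independent values. The sets are not independent, since the shares come from the same values as the levels, so this rate is only a rough guide. The libraries come from 3 mice, so a library of mouse 3 can be set apart by its mouse. Library 1 of mouse 3 had the highest Sox9 level, 12.1 FPKM, with 10.02 FPKM as the nearest value. The same library had the highest Slc4a4 level, 59.3 FPKM (nearest 48.2 FPKM), and the largest share of Acsbg1 in the sum of the 10 genes, 9.12% (nearest 7.82%). Library 2 of mouse 3 had the largest share of S100b, 24.6% (nearest 18.4%), and the smallest share of Slc4a4, 4.46% (nearest 5.69%). Library 1 of mouse 2 had the largest share of Aqp4, 7.63% (nearest 6.51%).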

How the results depend on the processing

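TPM was the scaling that moved the counts most. With it, 5698 genes and 3 members differed in the F-test in place of 3496 and 6, 1114 genes were higher in mouse 3 and 5723 lower in place of 2697 and 2282, and 3 members and 12 of the 26 further astrocyte genes were higher in place of 8 and 23. Sox9 (-0.11), Slc4a4 (-0.033) and Lhx2 (-0.21) changed sign with TPM, and of these Lhx2 passed there. Megf10 changed sign with the length trend removed (0.10), and when a library was left out it ranged from -0.32 without library 1 of mouse 3, where it passed, to 0.071 without library 2. Gdf10 (0.000726) and Snap25 (0.000563, lowest -0.24) changed sign without library 1 of mouse 3. Leaving out 1 library at a time gave 372 to 4131 genes and 2 to 7 members in the F-test, with 372 genes and 2 members without library 2 of mouse 3. It gave 898 to 2897 genes higher and 827 to 2721 lower in mouse 3, with the lowest numbers again without library 2 of mouse 3, 6 to 9 members higher, and 1 to 3 genes between mice 1 and 2. The 1969 to 2215 genes found in the F-test without a library of mouse 1 were also fewer. The cause of these changes was not tested. A mouse left with 1 library was assumed to vary like the others. Aqp4, Aldh1l1, S100b, Clu, Acsbg1 and Mlc1 passed the contrast of mouse 3 against mice 1 and 2 in 8 of 8 such fits. The F-test was less stable: Clu missed it without any single library of mouse 1 (limma F-test adjusted p = 0.0510, 0.0560 and 0.0531). With a replicate block, 8 members were higher and 6 passed the F-test, as without it. Libraries with the same number correlated by 0.00276 to 0.107 in their deviations, and those with other numbers by -0.135 to 0.0645. Of the 8 libraries 5 correlated best with their own number. These ranges and this count include the libraries of mouse 3. Those libraries gave correlations of equal size and opposite sign, so they cannot inform this check. Whether the numbers are pairs was not settled, and the main fit did not take them as pairs. The level of Fgfr3 was 11.5 FPKM and that of Slc4a4 37.99 FPKM with the highest transcript alone. The read number behind a value is unknown, and 3 mice set the precision.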
